A study of Danio rerio with 2 samples.

Results

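The 10 genes studied here, all known from motile cilia or the sperm tail, were followed through spermatogenesis in the adult zebrafish testis. These were the tektin genes tekt1, tekt2, tekt3 and tekt4, the radial spoke genes rsph1, rsph3, rsph4a, rsph9 and rsph14, and ropn1l. They were taken as a list of 10 symbols and matched without regard to case to the 32520 Ensembl gene identifiers of the count matrices, and each symbol matched 1 identifier. The identifiers were ENSDARG00000101331.2 (tekt1), ENSDARG00000028973.9 (tekt2), ENSDARG00000045038.8 (tekt3), ENSDARG00000028899.9 (tekt4), ENSDARG00000102261.3 (rsph1), ENSDARG00000043470.8 (rsph3), ENSDARG00000067606.5 (rsph4a), ENSDARG00000017355.8 (rsph9), ENSDARG00000017983.11 (rsph14) and ENSDARG00000058370.7 (ropn1l).

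The tail of a sperm cell is a motile flagellum built on an axoneme, a ring of doublet microtubules around a central pair. Tektins are coiled-coil proteins that form filaments inside the wall of the doublets and belong to the microtubule inner proteins. Radial spokes are T-shaped complexes that stand on each doublet, reach to the central pair and pass signals on to the dynein motors that bend the tail. RSPH1, RSPH4A and RSPH9 are proteins of the spoke head, RSPH3 is a protein of the spoke stalk that anchors protein kinase A, and RSPH14 is a further spoke protein. ROPN1L, known from mammals as a protein of the fibrous sheath of sperm, has a domain like that by which kinase regulatory subunits dock, and its counterpart in green algae is a spoke protein. In mouse, loss of Tekt2, Tekt3 or Tekt4 impairs sperm motility.

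Single cells of dissected, trypsin-digested testes of adult zebrafish aged 6 months were sequenced with a droplet 3′ kit in 2 libraries, replicate 1 and replicate 2, with no treatment. The labels call the fish wild type in one field and transgenic in another, and the study's methods give AB/Tübingen as the strain. The testes came from adult males (n = 2), and the libraries are biological replicates. The matrices held 3984 and 5996 cell barcodes with 34153824 and 52845050 UMIs, the counts of distinct captured transcripts, in replicates 1 and 2. Cells were staged as undifferentiated type A spermatogonia (SPG-Aun, 308 and 709 cells), differentiated type A spermatogonia (SPG-Ad, 292 and 528), type B spermatogonia (SPG-B, 178 and 307), primary spermatocytes (SPC-I, 438 and 849), secondary spermatocytes (SPC-II, 135 and 292), round spermatids (SPT-r, 222 and 382) and elongated spermatids (SPT-e, 426 and 849).

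The stages of replicate 1 were the study's own labels, of which the copy used here held 1999 cells, and those of replicate 2 were carried over from them through the nearest cells, with the 10 genes left out. When labels of replicate 1 were hidden, 97.1% came back from the other labelled cells of that library, between 94.1% in SPC-II and 99.0% in SPG-Aun. This measured recovery within replicate 1, and how well labels carried over to replicate 2 was not tested. Both libraries were clustered together without integration, and 209 of the 222 SPT-r cells of replicate 1 fell in a cluster held nearly only by that library, so the pairing of round spermatids across libraries rests on the label transfer. The 2 libraries shared 8 cell barcodes, 3 of them among staged cells. The germ cell marker ddx4 had 176 UMIs in SPT-e and 2453 in SPG-Aun per 1000000 UMIs of replicate 1, sycp3 of the synaptonemal complex was highest in SPC-I with 4737, and edrf1 in SPT-e with 826. The genes eno3, e2f5 and ripply2, listed by the study as markers of SPG-Aun, were higher in SPG-B and SPC-I than in SPG-Aun. The gene pcna, which the study names with sycp3 for spermatocytes and also as a marker of proliferation, was highest in SPG-Ad. It had 368 and 216 UMIs per 1000000 in SPC-I of replicates 1 and 2, against 1367 and 1421 in SPG-Ad. UMIs per cell averaged 11828 and 13370 in SPG-Aun, 8492 and 9733 in SPT-r and only 1628 and 1535 among SPT-e cells. Levels are therefore given as a share of UMIs and, for the comparisons of the 10 genes between stages, also per cell.

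The 10 genes together were scarce in spermatogonia, appeared in primary spermatocytes and went on rising as a share of UMIs up to elongated spermatids. As UMIs per 1000000 UMIs of a stage and replicate (CPM, here without further scaling), they took 67.0 and 96.6 CPM at SPG-Aun (replicates 1 and 2), 59.4 and 68.5 at SPG-Ad, 112 and 94.4 at SPG-B, 1086 and 1333 at SPC-I, 4529 and 4669 at SPC-II, 8316 and 8316 at SPT-r, and 11275 and 12199 at SPT-e. In elongated spermatids, 1.17% ± 0.0653 of all UMIs (SD, n = 2) came from these 10 genes. From SPC-I on, the values of each stage lay above those of the stage before in both libraries. Per cell the course was different in its last step. The 10 genes together had 0.792 and 1.29 UMIs per cell at SPG-Aun, 0.911 and 0.979 at SPG-Ad, 0.955 and 0.814 at SPG-B, 7.41 and 8.94 at SPC-I, 36.3 and 38.6 at SPC-II, 70.6 and 80.9 at SPT-r, and 18.4 and 18.7 at SPT-e. Round spermatids held the most UMIs of these genes per cell in both libraries.

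Of the tektins, tekt1 was by far the most abundant from SPC-I on, and tekt2 and tekt3 were rare at every stage. In spermatogonia tekt1 and tekt4 lay closer together, and in SPG-Aun of replicate 1 tekt4 was the higher. Each UMI counts 1 captured 3′ end, so levels were not divided by gene length, and differences between genes in capture or mapping were not tested. The gene tekt1 had 8.23 and 20.7 CPM at SPG-Aun, 10.3 and 15.1 at SPG-Ad, 20.4 and 17.7 at SPG-B, 265 and 363 at SPC-I, 1032 and 1161 at SPC-II, 2058 and 2166 at SPT-r, and 2863 and 3044 at SPT-e. The gene tekt4 had 11.3 and 7.49 CPM at SPG-Aun, 5.14 and 5.83 at SPG-Ad, 13.8 and 6.04 at SPG-B, 90.3 and 73.1 at SPC-I, 265 and 248 at SPC-II, 600 and 516 at SPT-r, and 388 and 320 at SPT-e. The shares of tekt1 were thus highest in SPT-e and those of tekt4 in SPT-r, and in both cases these 2 stages did not overlap between libraries.

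The rare tektins were at the edge of detection before SPC-II. Over all 2322 spermatogonia, tekt2 had 10 UMIs and tekt3 had 7. The gene tekt3 had 2 and 10 UMIs at SPC-I, 17 and 23 at SPC-II, 63 and 141 at SPT-r, and 14 and 19 at SPT-e. As a share this was 0.669 and 1.76 CPM at SPC-I, 15.7 and 9.54 at SPC-II, 33.4 and 37.9 at SPT-r, and 20.2 and 14.6 at SPT-e. For tekt3 the 2 UMIs of SPC-I in replicate 1 allow 0.081 to 2.42 CPM by the exact Poisson interval. The gene tekt2 had 2.68 and 5.80 CPM at SPC-I, 14.8 and 24.5 at SPC-II, 22.3 and 31.2 at SPT-r, and 27.4 and 28.4 at SPT-e. For tekt2, SPT-r overlapped with both SPC-II and SPT-e, whereas tekt3 was highest in SPT-r in both libraries.

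The 3 genes of the spoke head differed in level and in their last step. The gene rsph4a had 9.06 and 13.0 CPM at SPG-Aun, 10.9 and 13.0 at SPG-Ad, 11.2 and 13.97 at SPG-B, 194 and 242 at SPC-I, 853 and 862 at SPC-II, 1529 and 1427 at SPT-r, and 2269 and 2276 at SPT-e. The gene rsph9 had 6.86 and 13.2 CPM at SPG-Aun, 4.92 and 9.01 at SPG-Ad, 7.89 and 9.82 at SPG-B, 106 and 127 at SPC-I, 684 and 711 at SPC-II, 1280 and 1221 at SPT-r, and 1929 and 2070 at SPT-e. Both climbed through every stage from SPC-I on with no overlap between neighbouring stages. The gene rsph1 had 4.67 and 5.17 CPM at SPG-Aun, 2.90 and 3.58 at SPG-Ad, 9.21 and 9.44 at SPG-B, 45.1 and 56.7 at SPC-I, 136 and 126 at SPC-II, 159 and 181 at SPT-r, and 75.0 and 88.3 at SPT-e. Its share was highest in SPT-r, and SPT-e lay below SPC-II in both libraries.

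The stalk gene rsph3 had 1.37 and 3.06 CPM at SPG-Aun, 2.90 and 1.19 at SPG-Ad, 3.95 and 4.53 at SPG-B, 29.8 and 29.0 at SPC-I, 82.3 and 83.8 at SPC-II, 239 and 219 at SPT-r, and 395 and 373 at SPT-e. The spoke gene rsph14 had 4.94 and 4.96 CPM at SPG-Aun, 4.47 and 2.92 at SPG-Ad, 5.26 and 3.02 at SPG-B, 89.0 and 106 at SPC-I, 329 and 302 at SPC-II, 416 and 356 at SPT-r, and 316 and 259 at SPT-e. Of these, rsph3 was highest in SPT-e, whereas rsph14 was highest in SPT-r with SPT-e below it in both libraries. The gene ropn1l had 20.6 and 28.6 CPM at SPG-Aun, 17.4 and 17.0 at SPG-Ad, 38.8 and 29.4 at SPG-B, 264 and 328 at SPC-I, 1116 and 1141 at SPC-II, 1979 and 2162 at SPT-r, and 2994 and 3726 at SPT-e. It led the 10 genes on average in all 3 spermatogonial stages, in SPC-II and in SPT-e, although its values overlapped with those of tekt1 in SPG-Aun, SPC-II and SPT-e.

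**Figure D1:**
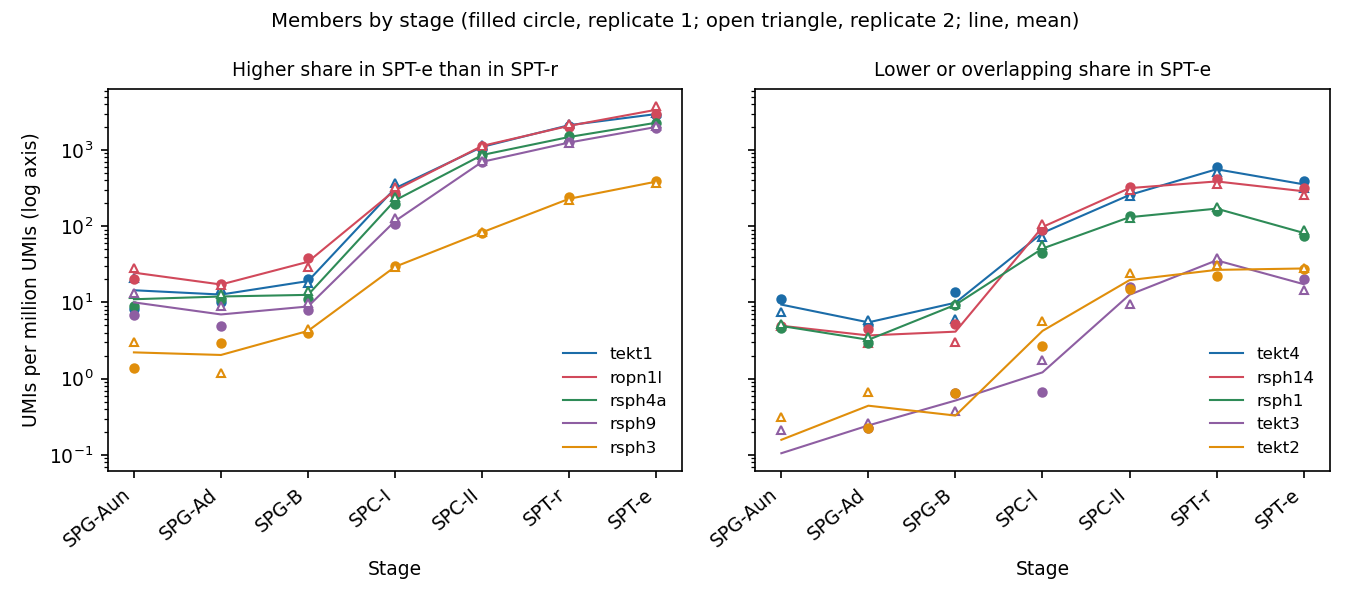
CPM (log axis) of each gene against the 7 stages in developmental order, with a filled circle for replicate 1, an open triangle for replicate 2 and a line through the mean; values of 0 have no point. The 5 genes on the left are highest in SPT-e in both replicates, such as ropn1l at 2994 and 3726, and on the right tekt4, rsph14, rsph1 and tekt3 are highest in SPT-r.

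In SPT-r the order of levels by CPM was tekt1 (2112 ± 76.8), ropn1l (2070 ± 129), rsph4a (1478 ± 72.6), rsph9 (1250 ± 42.0), tekt4 (558 ± 59.2), rsph14 (386 ± 42.4), rsph3 (229 ± 13.97), rsph1 (170 ± 15.3), tekt3 (35.7 ± 3.19) and tekt2 (26.7 ± 6.31; SD, n = 2 each). Only tekt1 and ropn1l overlapped with their neighbour in that order. In SPT-e, ropn1l (3360 ± 518) and tekt1 (2953 ± 128) overlapped, as did rsph3 (384 ± 15.6) and tekt4 (354 ± 47.9). In SPG-Aun the 5 leading genes were ropn1l (24.6 ± 5.66), tekt1, rsph4a, rsph9 and tekt4 (9.37 ± 2.66), and neighbours among these 5 overlapped.

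All 10 genes varied over the 7 stages more than between libraries in an F test of the summed counts (edgeR quasi-likelihood, adjusted over 14231 genes), with adjusted p between 2.0e-13 (rsph4a) and 3.2e-08 (tekt2). The same test called 89.8% of all genes. All 10 genes passed the filter on low counts, tekt2 and tekt3 through the stages from SPC-II on. The tests treat the stages as given, although these were drawn from the expression of the same cells. The 2 libraries are the only replicates, so p-values measure the spread between them. Since replicate 2 was staged by its likeness to cells of replicate 1, that spread is not one between independently staged libraries.

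Between neighbouring stages, a gene was called when its adjusted p was under 0.05 and its log2 fold change over 1 in size. On the share of UMIs with TMM scaling, which corrects library sizes for composition, none of the 10 genes was called in SPG-Ad over SPG-Aun, with the lowest adjusted p at 0.41 (tekt4). Among all genes 1.3% were called higher and 0.309% lower. In SPG-B over SPG-Ad, rsph1 alone rose (log2 fold change 1.46 ± 0.33 SE, adjusted p = 0.0044), with 9.21 and 9.44 CPM in SPG-B and 2.90 and 3.58 in SPG-Ad. Among all genes 5.67% were called higher and 9.71% lower. In a Leydig-like cluster, of cells without sperm tails, rsph1 stood at 6.11 CPM in replicate 1 (1 UMI, 95% exact Poisson interval 0.155 to 34.1). In replicate 2 it stood at 11.3 (7 UMIs, 4.54 to 23.2). The interval of replicate 1, from 1 UMI, holds the values of SPG-Ad and of SPG-B, so it cannot tell them apart. That of replicate 2 holds the SPG-B values and not those of SPG-Ad, and covers counting error only. Of this cluster's 96 UMIs of the 10 genes, 82 lay in 1 cell of replicate 2, and the part of that cell in the rsph1 value was not examined. The part of free RNA in the SPG-B levels was not tested. For ropn1l the adjusted p was 0.020 with a log2 fold change of 0.94, and with doublets removed it also passed at 1.16. With the replicate 2 clusters that are nearly its own kept in, 8 of 10 were called higher, against 6.5% of all genes in that setting, which was chosen after seeing the data.

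By fitted log2 fold change of the share, the step into meiosis was the largest between neighbouring stages for 9 of the 10 genes, all but tekt3. In each replicate alone this held for 8 genes, and for tekt2 it turned in replicate 1, with 1.40 in SPC-I over SPG-B and 2.22 in SPC-II over SPC-I. In SPC-I over SPG-B, 9 of 10 rose, against 15.8% of all genes called higher. The log2 fold changes were 4.52 ± 0.26 for rsph14, 3.97 ± 0.24 for rsph4a, 3.93 ± 0.35 for tekt1, 3.91 ± 1.05 for tekt2, 3.57 ± 0.33 for rsph9, 3.02 ± 0.29 for tekt4, 3.01 ± 0.26 for ropn1l, 2.64 ± 0.33 for rsph3 and 2.33 ± 0.26 for rsph1. Adjusted p lay between 2.0e-08 (rsph14) and 0.0080 (tekt2). The value of tekt2 rests on 8 and 33 UMIs in SPC-I and on 1 and 0 UMIs in SPG-B. For tekt3 the value was 1.30 ± 0.87 (adjusted p = 0.26), and replicate 1 alone gave -0.37. The median log2 fold change of the 10 genes was 3.29 and that of all genes 0.05.

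In SPC-II over SPC-I all 10 genes rose, against 12.4% of all genes called higher. The rise was steepest for tekt3 (2.97 ± 0.47, adjusted p = 0.00020) and rsph9 (2.43 ± 0.26, adjusted p = 6.6e-06). It was least for rsph1 (1.20 ± 0.20, adjusted p = 0.00032) and rsph3 (1.35 ± 0.23, adjusted p = 0.00031), and the other 6 lay between 1.50 (tekt4) and 2.03 (tekt2). The value of tekt3 rests on 2 and 10 UMIs in SPC-I. Since tekt2 and tekt3 passed the filter on low counts through SPC-II and later stages, their rises here do not stand apart from that filter. With no filter all 10 were still called, against 6.84% of all genes. In SPT-r over SPC-II, 7 of 10 rose, against 14.3% of all genes called higher, from 1.26 ± 0.19 for rsph4a to 2.06 ± 0.36 for tekt3. The others did not pass the limits: tekt2 (0.89 ± 0.42, adjusted p = 0.11), rsph1 (0.86 ± 0.20, adjusted p = 0.0032) and rsph14 (0.77 ± 0.16, adjusted p = 0.0022). TMM scaling adds 0.48 to these log2 values, and on plain shares 3 of 10 passed (tekt3, tekt4 and rsph3), against 8.36% of all genes, with all 10 values still positive.

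During elongation the members parted. In SPT-e over SPT-r, 4 of 10 rose as a share of UMIs, against 10.9% of all genes called higher and 7.99% called lower: rsph3 (1.19 ± 0.20, adjusted p = 0.00067), ropn1l (1.15 ± 0.22, adjusted p = 0.0017), rsph9 (1.13 ± 0.24, adjusted p = 0.0036) and rsph4a (1.06 ± 0.19, adjusted p = 0.00082). For tekt1 the value was 0.93 ± 0.28 (adjusted p = 0.027), and DESeq2 called it higher at 1.10. For tekt2 it was 0.48 ± 0.43 (adjusted p = 0.45). The others had values of 0.00 (rsph14), -0.23 (tekt4), -0.60 (rsph1, adjusted p = 0.048) and -0.64 (tekt3, adjusted p = 0.22). TMM scaling adds 0.43 here. On plain shares the 4 calls were lost, with values of 0.62 to 0.75 and 6.2% of all genes called higher, and rsph14 stood at -0.43. There 2 of 10 were called lower, tekt3 (-1.08) and rsph1 (-1.05), a share near the 17.5% of all genes called lower. With no filter on low counts, which also changes the TMM factors, none passed (0.86 to 0.99 for the 4). Relative to the median of all genes, 6 members lay above and 4 below on both scalings, and differences from that median were not tested.

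The counts of one member per 100 of another do not depend on any scaling, and were chosen after the values were seen. There were 23.3 and 23.4 rsph1 UMIs per 100 of rsph4a at SPC-I, 15.9 and 14.7 at SPC-II, 10.4 and 12.7 at SPT-r and 3.30 and 3.88 at SPT-e, each stage below the one before in both libraries. For rsph14 there were 13.9 and 11.4 UMIs per 100 of rsph4a in SPT-e, against 27.2 and 25.0 in SPT-r. For tekt4 there were 13.5 and 10.5 UMIs per 100 of tekt1 in SPT-e, against 29.2 and 23.8 in SPT-r. The head genes rsph9 and rsph4a kept closer to each other after SPC-I, with 54.8 and 52.4 rsph9 UMIs per 100 of rsph4a at SPC-I, 80.2 and 82.5 at SPC-II, 83.7 and 85.6 at SPT-r and 85.0 and 90.9 at SPT-e.

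**Figure D2:**
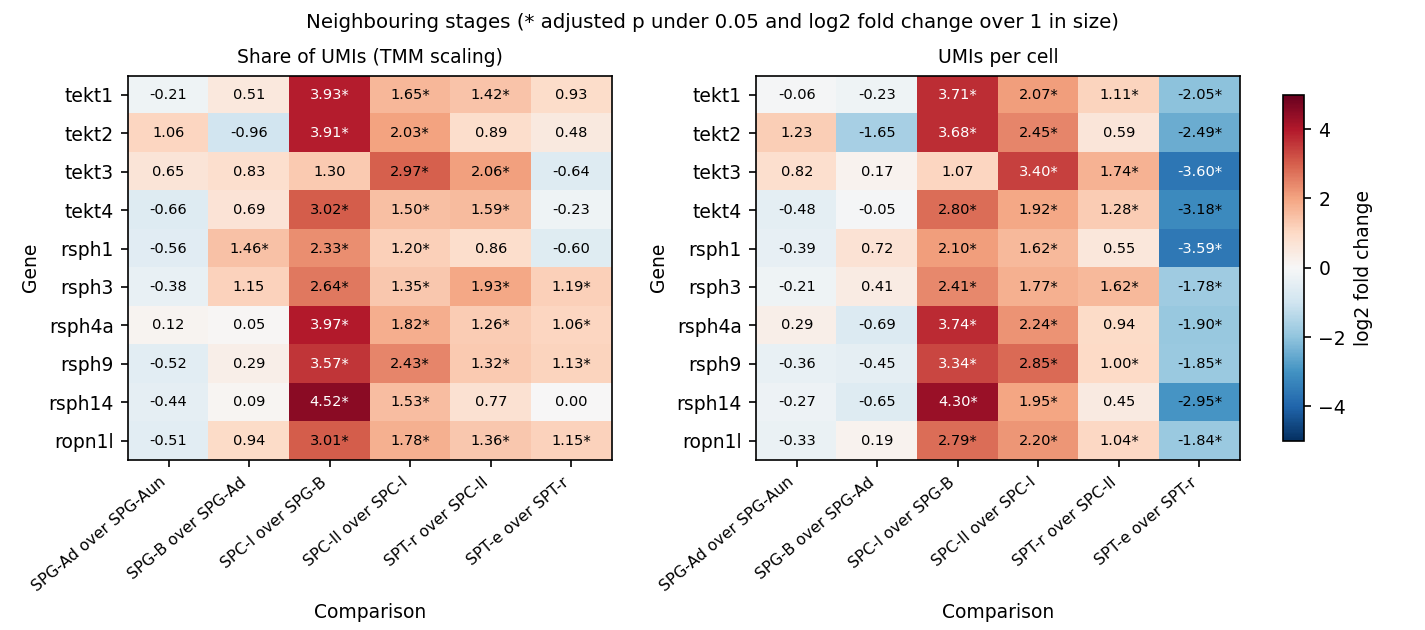
log2 fold changes of the 10 genes in the 6 comparisons of neighbouring stages, each later stage over the one before, as a share of UMIs on the left and per cell on the right, with colour from -5 to 5 and an asterisk where the adjusted p is under 0.05 and the size over 1. On the left 9 of 10 genes are called higher in SPC-I over SPG-B (15.8% of all genes) and 10 of 10 in SPC-II over SPC-I (12.4%). On the right all 10 are called lower in SPT-e over SPT-r, as are 82.7% of all genes.

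Per cell, with the number of cells in place of the library size, the rises into and through meiosis held. None of the 10 genes was called in SPG-Ad over SPG-Aun, where 1.86% of all genes were called higher and 0.176% lower, or in SPG-B over SPG-Ad, where 1.05% were called higher and 31.1% lower. For rsph1 in SPG-B over SPG-Ad the value per cell was 0.72 ± 0.31 (adjusted p = 0.069). In SPC-I over SPG-B, 9 of 10 rose per cell, against 12.7% of all genes, from 2.10 ± 0.25 (rsph1) to 4.30 ± 0.30 (rsph14). In SPC-II over SPC-I, 10 of 10 rose, against 22.1% of all genes, from 1.62 ± 0.20 (rsph1) to 3.40 ± 0.51 (tekt3). The limit on tekt2 and tekt3 from the low-count filter holds here too, and with no filter 10 of 10 were called, against 12.2% of all genes. In SPT-r over SPC-II, 6 of 10 rose, against 9.96% of all genes, led by tekt3 (1.74 ± 0.40) and rsph3 (1.62 ± 0.24), and rsph9 passed at 1.00 ± 0.23 and was lost at 0.99 with a vote of 5 neighbours for the stage labels.

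In SPT-e over SPT-r, all 10 genes fell per cell, as 82.7% of all genes did. Elongated spermatids held 0.174 times the UMIs of round spermatids per cell, and the median log2 fold change of all genes was -2.86. The gene rsph1 had 0.122 and 0.135 UMIs per cell in SPT-e, against 1.35 and 1.76 in SPT-r, a log2 fold change of -3.59 ± 0.22 (adjusted p = 2.2e-10). The gene tekt3 fell by 3.60 ± 0.41 on the log2 scale, tekt4 by 3.18 ± 0.23 and rsph14 by 2.95 ± 0.21, all beyond the median of all genes. The gene ropn1l had 4.88 and 5.72 UMIs per cell in SPT-e, against 16.8 and 21.0 in SPT-r (-1.84 ± 0.20, adjusted p = 2.0e-07). The gene tekt1 had 4.66 and 4.67 UMIs per cell in SPT-e, against 17.5 and 21.1 in SPT-r (-2.05 ± 0.28). The 6 genes rsph3 (-1.78), ropn1l, rsph9 (-1.85), rsph4a (-1.90), tekt1 and tekt2 (-2.49 ± 0.45) fell less than the median of all genes. Both rsph14 and tekt2 lay within 1 SE of that median, and the difference of a gene from it was not tested. Whether RNA is lost from elongated spermatids or less of it is captured from them cannot be told apart in these counts.

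**Figure D3:**
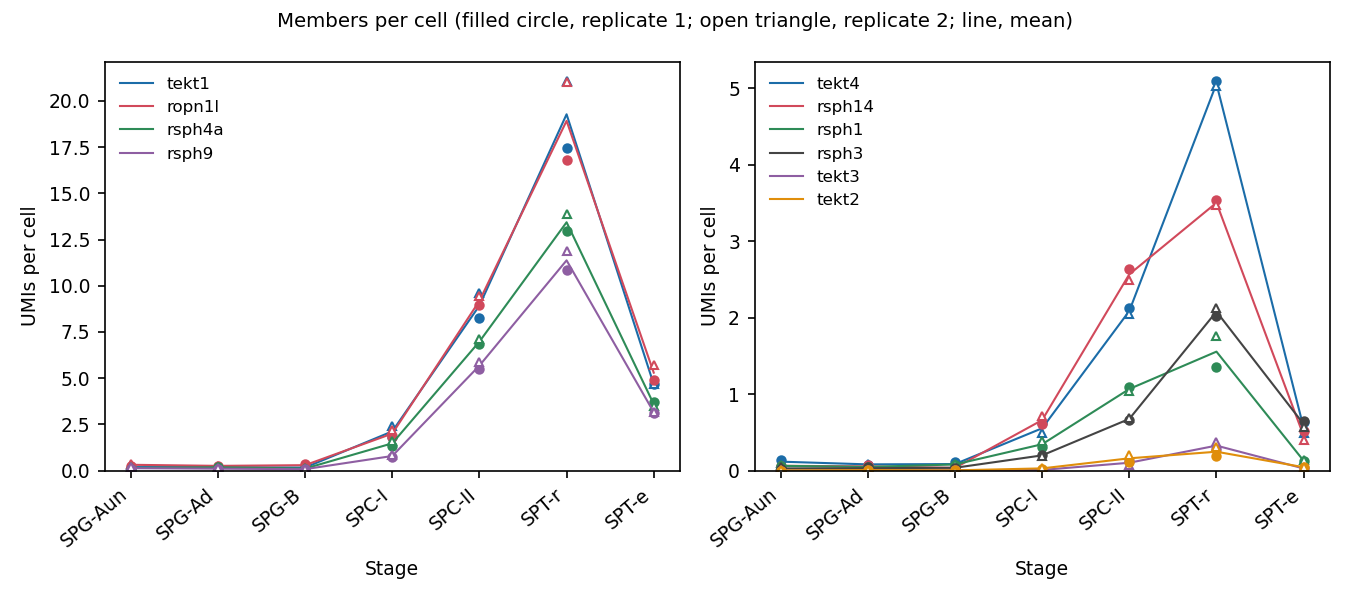
UMIs per cell (linear axes, with different scales) of each gene against the 7 stages, with a filled circle for replicate 1, an open triangle for replicate 2 and a line through the mean. Every gene is highest in SPT-r in both replicates, with tekt1 at 17.5 and 21.1 and rsph1 at 1.35 and 1.76, and lower in SPT-e.

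Over the whole course, spermatids (mean of SPT-r and SPT-e) over spermatogonia (mean of the 3 stages), all 10 genes rose as a share of UMIs, against 30.7% of all genes called higher. The log2 fold changes were 7.89 ± 0.20 for rsph9, 7.74 ± 0.23 for tekt1, 7.65 ± 0.15 for rsph4a, 7.18 ± 0.17 for ropn1l, 7.16 ± 0.18 for rsph3, 6.78 ± 0.42 for tekt2, 6.77 ± 0.36 for tekt3, 6.74 ± 0.14 for rsph14, 6.24 ± 0.17 for tekt4 and 4.88 ± 0.16 for rsph1. Adjusted p lay between 3.7e-15 (rsph4a) and 5.9e-10 (tekt2). On plain shares, without TMM factors, the values ran from 4.46 (rsph1) to 7.47 (rsph9). The median over the 10 genes was 6.97 and that over all genes -0.36. Of the 10, tekt2 and tekt3 passed the filter on low counts through later stages only. With no filter all 10 were still called, against 18.3% of all genes. Per cell the rises were smaller for every member, from 2.83 ± 0.15 (rsph1) to 5.84 ± 0.18 (rsph9). Their median per cell was 4.96, against -2.36 over all genes.

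The summed level in spermatogonia lay above that of a Leydig-like cluster, cells without sperm tails, in replicate 1 and below it in replicate 2. In spermatogonia the 10 genes took 70.5 and 85.5 CPM in replicates 1 and 2, with median depths of 11406 and 11318 UMIs. In the Leydig-like cluster they took 12.2 CPM in replicate 1 (11 cells, median 15968 UMIs, 95% exact Poisson interval 1.48 to 44.2) and 152 in replicate 2 (34 cells, median 17309 UMIs, 122 to 185). Of the cluster's 96 UMIs of these genes, 82 lay in 1 cell of replicate 2, and the other 44 cells of both libraries held 18.5 CPM. A few cells held much of the spermatogonial level in replicate 2: 19 of 709 SPG-Aun cells with 10 or more UMIs of these genes held 48.3% of them, and without those cells the level was 52.0 CPM. In replicate 1 no SPG-Aun cell reached 10 such UMIs. A tekt1 UMI was found in 11.1% and 10.9% of spermatogonia and in 2.22% of the Leydig-like cells (exact binomial 95% interval 0.0562% to 11.8%). A ropn1l UMI was found in 21.1% and 16.7% of spermatogonia and in 11.1% of the Leydig-like cells (3.71% to 24.1%). The part of free RNA and of mixed droplets in the spermatogonial levels was not tested, and intervals cover counting error only.

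Cells were also compared at equal depth, by drawing 500 UMIs from each cell, which every staged cell had. The share of cells with a tekt1 UMI was 0.325% and 0.846% at SPG-Aun, 11.6% and 14.3% at SPC-I, 36.3% and 45.5% at SPC-II, 59.9% and 65.4% at SPT-r, and 77.2% and 76.6% at SPT-e. For ropn1l it was 11.2% and 13.8% at SPC-I, 42.2% and 45.9% at SPC-II, 62.2% and 62.3% at SPT-r, and 79.6% and 83.0% at SPT-e. For rsph1 it was 3.42% and 2.00% at SPC-I, 7.41% and 6.85% at SPC-II, 5.86% and 7.85% at SPT-r, and 1.64% and 3.30% at SPT-e. At equal depth SPT-e was thus the stage with most cells positive for tekt1 and ropn1l and lay below SPT-r for rsph1. Without thinning, tekt1 was found in 93.4% and 94.6% of SPT-e cells and in 100% of SPT-r cells in both libraries, and rsph1 in 9.86% and 11.5% of SPT-e cells and 73.4% and 80.4% of SPT-r cells. Of the 10 genes, a cell of 500 UMIs showed on average 0.0386 ± 0.0132 at SPG-Aun, 0.521 ± 0.0328 at SPC-I, 1.85 ± 0.0385 at SPC-II, 2.85 ± 0.00595 at SPT-r and 3.40 ± 0.0231 at SPT-e (SD, n = 2 each). At least 3 of the 10 were found in 79.7% ± 0.116 of SPT-e cells and in 2.55% ± 0.0565 of SPC-I cells.

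**Figure D4:**
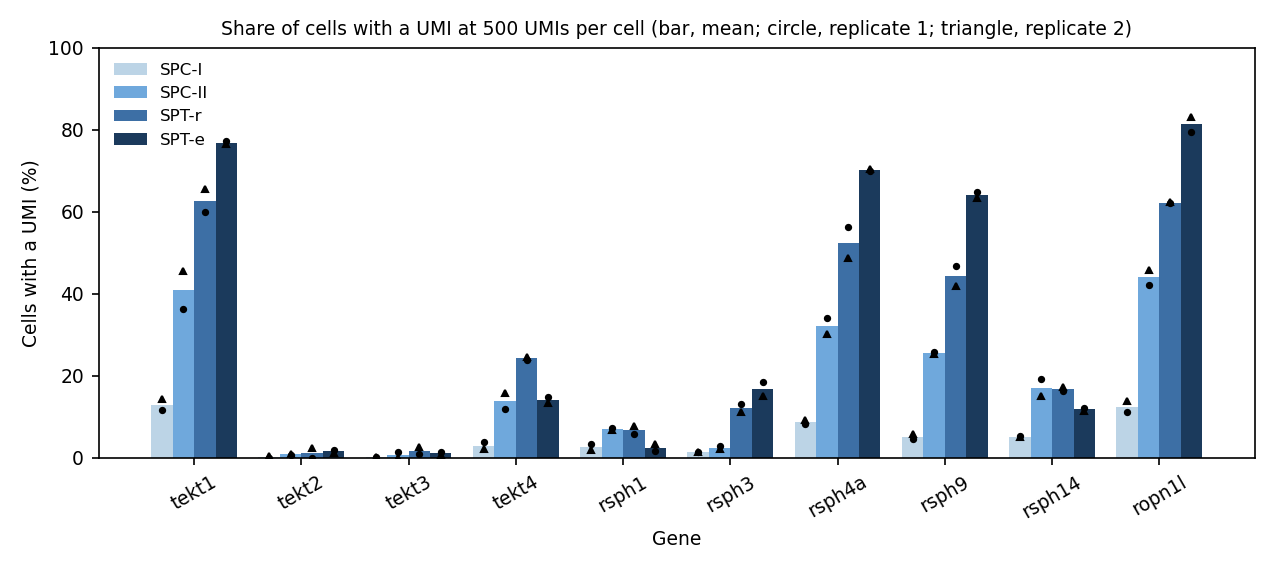
Share of cells (%) with at least 1 UMI of each gene after drawing 500 UMIs per cell, with a bar for the mean, a circle for replicate 1 and a triangle for replicate 2, for the 4 stages from SPC-I on. For tekt1, ropn1l, rsph4a and rsph9 the bars climb to SPT-e (77.2% and 76.6% for tekt1), whereas for tekt4, rsph1 and rsph14 the SPT-e bar is below the SPT-r bar.

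Within stages, the study's own clusters divide replicate 1 further, and these values come from 1 library with no test. The 2 clusters of SPC-I differed widely. Cluster 4 (158 cells) had 2418 CPM of the 10 genes (95% exact Poisson interval 2323 to 2516) and cluster 0 (280 cells) had 414 (386 to 443). In cluster 4, rsph9 had 266 CPM and rsph4a 468, against 25.7 and 55.8 in cluster 0, whereas tekt4 had 139 in cluster 4 and 65.9 in cluster 0. The rise in primary spermatocytes was therefore uneven over cells: 118 of the 438 SPC-I cells of replicate 1 and 298 of the 849 of replicate 2 had 10 or more UMIs of these genes, and they held 70.9% and 81.1% of the stage's UMIs of the 10 genes.

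The elongated spermatids also fell into 2 clusters. Cluster 1 (186 cells, median 869 UMIs) had 13784 CPM of the 10 genes and cluster 2 (240 cells, median 1896 UMIs) had 10389. The 2 clusters differed in composition: tekt1 had 3930 CPM in cluster 1 and 2485 in cluster 2, whereas rsph1 had 22.1 (4 UMIs, interval 6.02 to 56.5) in cluster 1 and 93.6 in cluster 2. Depth differed with the cluster, and its part in the difference was not tested. In SPT-r, cluster 11 had 376 CPM of rsph3 and cluster 7 had 178, and for rsph14 the values were 352 and 445. The clusters of spermatogonia lay between 55.1 and 120 CPM of the 10 genes.

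**Figure D5:**
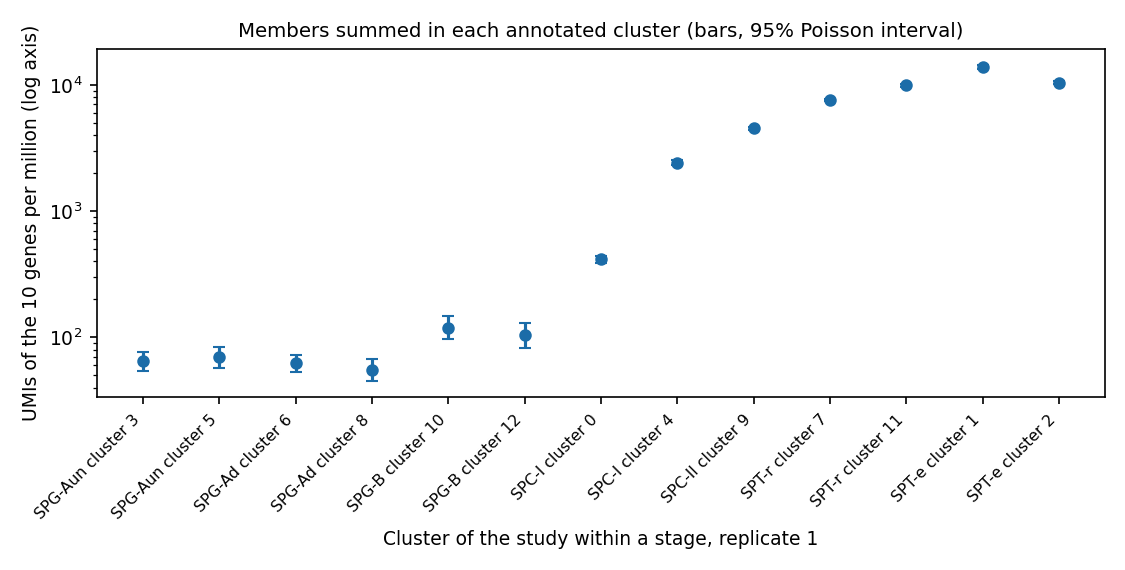
CPM of the 10 genes together (log axis) in each of the study's clusters in replicate 1, ordered by stage, with bars for the 95% Poisson interval. The clusters of SPC-I stand apart at 414 and 2418, and the clusters of spermatids lie between 7616 and 13784.

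The make-up of the 10 genes' UMIs shifted with the stage. In SPT-e, ropn1l made up 28.6%, tekt1 25.2%, rsph4a 19.4% and rsph9 17.0% of them, and rsph1 0.694%. In SPG-B, rsph1 made up 9.12% and rsph9 8.73%. The share of rsph14 was 8.08% at SPC-I, 6.87% at SPC-II, 4.65% at SPT-r and 2.46% at SPT-e. These are means of 2 libraries.

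Other genes of the same structures followed a like course, by counts in the same fits on the share of UMIs with TMM scaling. Of 15 further radial spoke symbols, 9 matched an identifier and were tested. In spermatids over spermatogonia 9 of 9 rose, with a median of 5.78, against 30.7% of all genes called higher. The largest rises were those of cfap91 (8.16 ± 0.20), a protein of the spoke base, and dnajb13 (7.13 ± 0.17), a spoke protein of the DnaJ chaperone family. The smallest were those of rsph10b (4.53 ± 0.17), a spoke gene that shares MORN repeats with rsph1, and cyb5d1 (5.03 ± 0.20). In SPG-B over SPG-Ad, 4 of the 9 were called higher, against 5.67% of all genes, with rsph10b among them (1.30 ± 0.34, adjusted p = 0.011). Per cell, 0 of the 9 were called higher there and 2 lower, against 1.05% and 31.1% of all genes. In SPT-e over SPT-r, rsph10b fell as a share of UMIs (-1.21 ± 0.22, adjusted p = 0.0012). The comparison of SPT-e with SPT-r called 0 of the 9 higher and 1 lower, against 10.9% of all genes called higher and 7.99% called lower. Per cell, 9 of 9 were called lower there, as were 82.7% of all genes. In spermatids over spermatogonia the median of the 9 per cell was 3.75, against -2.36 over all genes.

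Of 48 symbols of microtubule inner protein and doublet genes, 30 matched and were tested. In spermatids over spermatogonia 30 of 30 rose, with a median of 7.14, against 30.7% of all genes called higher. The extremes were spag8 (7.91 ± 0.15) and cimap1b (7.82 ± 0.18) at the top and cfap20 (4.43 ± 0.12) and nme7 (4.75 ± 0.11) at the bottom. In SPC-I over SPG-B, 29 of 30 rose, against 15.8% of all genes called higher, and the exception was cfap20 (0.54 ± 0.18, adjusted p = 0.027). In SPT-e over SPT-r, 16 of the 30 rose as a share of UMIs and none fell by the same limits. Among all genes 10.9% were called higher and 7.99% lower. TMM scaling adds 0.43 to these log2 values, and the calls on plain shares are not given. Per cell, 30 of 30 were called lower there, as were 82.7% of all genes. In spermatids over spermatogonia the median of the 30 per cell was 5.09, against -2.36 over all genes.

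Of 11 symbols of transcription factors known from motile cilia, 7 matched and 6 were tested. In spermatids over spermatogonia 4 of the 6 rose as a share of UMIs, against 30.7% of all genes called higher: rfx3 (7.01 ± 0.15), foxj1b (5.92 ± 0.19), gmnc (4.42 ± 0.34) and rfx2 (2.95 ± 0.16). For mybl1, an activator of meiotic genes in mouse, the value was 0.33 ± 0.16 (adjusted p = 0.072), and for mcidas, a coregulator in multiciliated cells, -2.02 ± 1.68 (adjusted p = 0.29). In SPC-I over SPG-B, 9 of the 10 members rose and 15.8% of all genes were called higher. There gmnc (4.12 ± 0.57), foxj1b (3.57 ± 0.31), rfx2 (2.24 ± 0.26), mcidas (2.08 ± 0.67) and mybl1 (1.14 ± 0.21) rose. The gene rfx3 was at 0.91 ± 0.29 (adjusted p = 0.020) and rose as a share of UMIs in the 3 later steps (2.59, 2.40 and 1.79). In SPT-e over SPT-r, foxj1b (-1.61 ± 0.22) and mybl1 (-1.09 ± 0.26) fell as a share of UMIs, against 7.99% of all genes called lower. Per cell, 6 of 6 were called lower there, rfx3 among them, as were 82.7% of all genes. In spermatids over spermatogonia per cell, 3 of the 6 were called higher and 2 lower. Their median was 1.65, against -2.36 over all genes. The share of all genes called in that comparison per cell is not given.

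The members resembled each other closely over the 14 sums of 7 stages in 2 libraries, with Pearson r of log2 CPM between 0.917 (tekt3 and rsph14) and 0.997 (tekt1 and rsph4a) over their 45 pairs. These are descriptions, since the sums share 2 libraries and the same stages. Every member had a higher r with some gene outside the list than with any other member. The r between genes at large was not examined, so the likeness is not shown to be particular to the list. For each member, the gene with the highest r outside the list was kif9 for tekt1 (r = 0.998), a kinesin of the motile axoneme, stap2a for tekt2 (0.994), b3gat2 for tekt3 (0.992), zmynd10 for tekt4 (0.996), a factor for assembly of dynein arms, and ak9 for rsph1 (0.996), an adenylate kinase. For the others it was cfap263 for rsph3 (0.997), cfap210 for rsph4a (0.999), a microtubule inner protein gene, dnaaf3l for rsph9 (0.999), daw1 for rsph14 (0.997), another factor for dynein arms, and pierce1 for ropn1l (0.999), a microtubule inner protein gene.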

How the data were processed

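The authors aligned the reads to danRer11 and counted UMIs per gene and cell with Cell Ranger, version 7.2.0 by their processing notes and 6.1.2 by the matrix headers, and the deposited matrices hold these raw counts with no normalisation. Gene symbols came from a table of Ensembl identifiers, which named 29201 of 32520. The 10 members, the gene lists and the markers were chosen with earlier results of these data known, and nothing is independent support for a pattern already seen in them.

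Cells with 200 to 7000 genes and at most 5% mitochondrial UMIs were kept, after the study's methods, which left 3018 and 5104 cells. Stages of replicate 1 came from the study's source data, whose copy here was cut short at 1999 cells; 907 passing cells beyond it got no stage. Replicate 2 was staged by the vote of the 15 nearest labelled cells in 30 components of 2000 variable genes, from which 87 genes (members, lists and markers) were left out. The way of choosing variable genes was settled after seeing the cells, on the recovery of hidden labels, not on the members. The study removed clusters of 1 replicate after integration with Harmony; here, without integration, cells in clusters with under 5% from the other library were left out of replicate 2 only (1008 cells), and such cells of replicate 1 kept the study's labels. Non-germ clusters were called Leydig-like or Sertoli-like only where 3 or more listed markers were detected and a listed marker was among the leading genes. Doublets were called with Scrublet as an alternative only (2.52% and 1.92% of cells).

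UMIs were summed per stage and replicate (14 sums of 693732 to 9479533 UMIs) and 14231 genes were fitted with edgeR 4.0.16 (glmQLFit and glmQLFTest, TMM, Benjamini-Hochberg); the fit per cell used cell numbers as offset. Sums of the same replicate number come from the same library, and their deviations from the stage means correlated between 0.12 and 0.49 over pairs of stages, so the numbers pair the sums; the fit with a replicate block was an alternative, as were DESeq2 1.42.0, no filter, no TMM factors, other votes and labels, a mitochondrial limit of 10%, doublets removed and no cluster left out. The code was tested on simulated data. Intervals are 95% exact Poisson or Clopper-Pearson intervals. Genes named beyond the members were, for each member, the gene of highest Pearson r, and from each list the 2 largest and 2 smallest rises in spermatids over spermatogonia; other genes named were chosen after their values were seen. No sequences or coordinates are shown, since no genome of the files' build was used here.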

Additional observations from a re-analysis of the deposited data

Results flagged for a closer look

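Some cells with a signal of the 10 genes entered no comparison because they had no stage. The 886 such barcodes of replicate 1 beyond the copied annotation, non-germ clusters aside, had 1611 CPM of the 10 genes, UMIs per 1000000 UMIs, and 69 further barcodes within its range had 250. In replicate 2, the 1008 cells in clusters nearly its own (median 1603 UMIs) had 942 CPM, and 114 cells not kept had 86.8. For scale, replicates 1 and 2 had 70.5 and 85.5 CPM in spermatogonia and 1086 and 1333 in SPC-I. In SPT-e, with medians of 1374 and 1337 UMIs, they had 11275 and 12199. The make-up of the 1008 cells by stage is not given here.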

How the results depend on the processing

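Each member's log2 fold change was recomputed in 130 comparisons under the alternatives, giving 1240 values, of which 1212 stayed on their side of the limits, 16 lost and 12 gained a call, and 0 of the called values turned round. Values near 0 changed sign 30 times with no call on either side. The replicate block changed no call. With it, 9 of 10 members were higher in SPC-I over SPG-B, against 17.7% of all genes (15.8% without it). In SPC-II over SPC-I it was 10 of 10, against 13.8% (12.4% without it). In the counts that follow, the share of all genes called in the same setting stands in brackets. For SPG-B over SPG-Ad as a share of UMIs, the count called higher was 1 (5.67%). It was 2 with doublets removed (5.84%) and 8 with no cluster left out (6.5%). For SPT-r over SPC-II it was 7 (14.3%), against 3 without TMM factors (8.36%). For SPT-e over SPT-r the count called higher was 4 (10.9%), against 0 without TMM factors (6.2%). It was 0 with no filter on low counts (5.02%) and 2 with no cluster left out (9.38%). The count called lower there was 0 (7.99%), against 2 without TMM factors (17.5%). Per cell, SPG-B over SPG-Ad called 0 lower (31.1%), against 1, rsph14, with labels transferred in both replicates (31.5%). Without thinning, 0 members had their highest share of positive cells in SPT-e, against 6 at 500 UMIs per cell. In 1 replicate alone, all 41 called changes in the share of UMIs kept their sign in both replicates. With 2 libraries the spread behind every test rests on 1 difference per stage, and the low counts of tekt2 and tekt3 before SPC-II limit what could be detected.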
